A study of Mus musculus with 18 samples.

Results

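Cytochrome c oxidase is complex IV of the respiratory chain, and its nuclear genes were followed here in whole embryonic mouse lungs in which Rptor, Tfam or Cox10 had been deleted from the epithelium. Genes were taken by name, as rows beginning with Cox and a digit plus Sco1, Sco2, Surf1 and Cycs, with a mean of at least 50 normalised reads in each of the 3 tables. Of 31 matching genes among 23420 rows per table, 25 met this rule: 13 structural subunits, 11 assembly factors and cytochrome c (Cycs). The 6 genes below the mean were Cox6a2, Cox7a1, Cox7b2, Cox8b, Cox8c and Sco2.

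Lungs were collected at 14.5 days post coitus (dpc) from the Rptor, Tfam and Cox10 lines. Deficient lungs were Rptorf/f; ShhCre/+, Tfamf/f; ShhCre/+ or Cox10f/f; ShhCre/+, and control lungs were Rptorf/+; ShhCre/+, Tfamf/+; ShhCre/+ or Cox10f/+; ShhCre/+, with 3 libraries in each of 6 groups and 18 in all. By these genotypes, taken from the methods of the study, every embryo carried 1 ShhCre allele and at least 1 floxed allele (f). A figure legend of the study gives the 14.5 dpc controls as ShhCre/+, without naming a floxed allele. Cre was expressed from the Shh locus, which is active in lung epithelial cells, while RNA was taken from the whole lung with its mesenchyme, vessels and blood. Controls were littermates by the methods of the study, but the labels do not give litters or say whether a library is 1 embryo, so that the p-values below measure the spread between these libraries. Library totals were 27727200 to 29611100 normalised reads, and the 25 genes held 0.170 to 0.221% of them. The tables were scaled line by line, so that levels of different lines are set side by side below without a test.

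Complex IV passes electrons from cytochrome c to oxygen and pumps protons across the inner mitochondrial membrane. Its catalytic core is encoded by mitochondrial DNA and was not analysed here, whereas the surrounding subunits (Cox4 to Cox8) and the factors that insert heme and copper are nuclear. Rptor encodes a component of mTOR complex 1, a kinase that promotes growth and mitochondrial gene expression, Tfam encodes the factor that packages and transcribes mitochondrial DNA, and Cox10 encodes the enzyme that makes heme O, the precursor of the heme A in complex IV.

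Cox10, targeted in its own line and an assembly factor, had 753, 812 and 824 normalised reads in the 3 control libraries of the Cox10 line and 809, 829 and 743 in the deficient ones. The groups overlapped (log2 fold change -0.01, SE 0.070; limma adjusted p = 0.979). Rptor had 2298, 2224 and 2197 normalised reads in Rptor-line controls and 2442, 1986 and 2019.8 in deficient lungs (log2 fold change -0.07, SE 0.083; limma adjusted p = 0.57), and passed without deficient replicate 1 (limma adjusted p = 0.0435) or after correction for GC content and length (0.0451). Tfam had 1057, 1063 and 1185 in Tfam-line controls and 939.9, 994 and 1107 in deficient lungs (log2 fold change -0.12, SE 0.079; limma adjusted p = 0.472). Control and deficient values overlapped at all 3 targeted genes. Which exons were removed was not analysed here, and values of whole genes in whole lungs do not check a deletion in the epithelium.

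Among the structural subunits, levels per kilobase of the principal transcript spanned a wide range in controls. In the Rptor line Cox4i1, the ubiquitous form of subunit 4, was highest at 11797 ± 255 normalised reads per kb (SD, n = 3), followed by Cox8a at 10128 ± 404 (SD, n = 3) and Cox6b1 at 8557 ± 147 (SD, n = 3). The lowest structural subunits were Cox6b2 at 507 ± 64.4 and Cox4i2 at 391 ± 28.7 (SD, n = 3), both tissue-restricted forms. Assembly factors were lower as a group, from 2554 ± 156 for Cox20, a chaperone of the mitochondrially encoded subunit 2, to 149.9 ± 17.0 for the copper chaperone Cox17 (SD, n = 3). Cycs stood at 868 ± 57.5 per kb (SD, n = 3). In the Tfam table the order at the top was different, with Cox8a at 14666 ± 309, Cox6a1 at 12071 ± 158, Cox6b1 at 11209 ± 660 and Cox4i1 at 7593 ± 733 per kb (SD, n = 3).

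**Figure D1:**
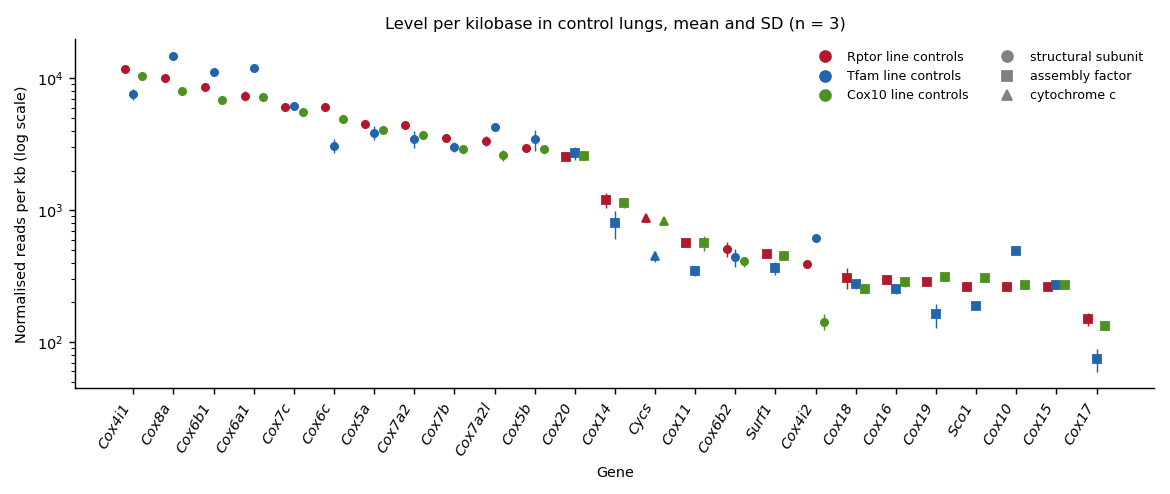
Normalised reads per kilobase (log axis) of the 25 genes in the control lungs of the 3 lines, as mean and SD of 3 libraries, ordered by the Rptor-line controls. Structural subunits other than Cox6b2 and Cox4i2 lie above the assembly factors, from 2974 for Cox5b to 11797 for Cox4i1 in the Rptor line.

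Loss of Rptor was compared with control to ask whether nuclear complex IV genes moved when mTOR complex 1 was lost from the epithelium. Of the subunit, assembly and carrier genes 8 fell and 2 rose: Cox5a, Cox6b1, Cox6c, Cox7a2, Cox7b, Cox8a, Cox10 and Cycs were lower, and Cox4i2 and Surf1 were higher. That is 10 of 25 genes past a limma adjusted p of 0.05, beside 34.8% of all genes tested in this line (18.2% lower and 16.6% higher). The median log2 fold change of the 25 genes was -0.14, and that of all genes was 0.01, with 19 of the 25 below 0 beside 49% of all genes. Control and deficient values did not overlap for 13 of the 25, 10 lower and 3 higher, beside 50.3% of all genes, 26% lower and 24.3% higher. The split by role was uneven in its counts: of 13 structural subunits 6 fell, 1 rose and 6 did not pass (median -0.17), and of 11 assembly factors 1 fell, 1 rose and 9 did not pass (median -0.10). Summed reads were 47983 ± 1146 in controls and 43423 ± 1981 in deficient lungs for the structural subunits, and 8222 ± 308 and 7937 ± 339 for the assembly factors (SD, n = 3). A difference between the roles was not tested.

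Cox5a, a matrix-side subunit that contacts Cox4, fell most among the structural subunits. It had 2854, 2849 and 2992 normalised reads in controls and 1941, 1811 and 1849 in Rptor-deficient lungs. Every deficient library lay far below every control, and Cox5a fell by 35.6% (log2 fold change -0.63, SE 0.055; limma adjusted p = 0.000151). Cycs, the soluble carrier that brings electrons to complex IV and also takes part in apoptosis, had 2532, 2891 and 2708 in controls and 1509, 1751 and 1843 in deficient lungs. All 3 deficient libraries were again lower, and Cycs fell by 37.4% (log2 fold change -0.67, SE 0.086; limma adjusted p = 0.000786). Both stayed past the threshold when any 1 library was left out.

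The other 5 structural subunits that fell did so by smaller amounts. Cox6c, a small transmembrane subunit, had 4363, 4499.8 and 4522 normalised reads in controls and 3437, 3253 and 3936 in deficient lungs (log2 fold change -0.34, SE 0.073; limma adjusted p = 0.0083). Deficient replicate 3 was the highest of its group and still below the lowest control. Cox6b1, the intermembrane-space subunit that links the 2 monomers, had 5393, 5236 and 5235 in controls and 4223, 4109.7 and 4359.8 in deficient lungs (log2 fold change -0.32, SE 0.049; limma adjusted p = 0.00174). Cox7b had 3460.5, 3715 and 3449.6 against 2794, 2758 and 2986 (log2 fold change -0.32, SE 0.058; limma adjusted p = 0.00401). For both genes the groups were well apart, by more than the range within either group. Cox7a2, the form of subunit 7a found outside heart and skeletal muscle, had 3092, 2917 and 2767 in controls and 2431, 2424 and 2464 in deficient lungs (log2 fold change -0.26, SE 0.057; limma adjusted p = 0.00899). Cox8a, a short membrane-spanning subunit, had 5754, 5324 and 5634 against 4899, 4593 and 5004 (log2 fold change -0.21, SE 0.056; limma adjusted p = 0.0222). Its groups did not overlap, but it was past the threshold in 3 of 6 fits that left out a library, with limma adjusted p up to 0.0829 without control replicate 1, 0.0748 without control replicate 3 and 0.076 without deficient replicate 2.

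**Figure D2:**
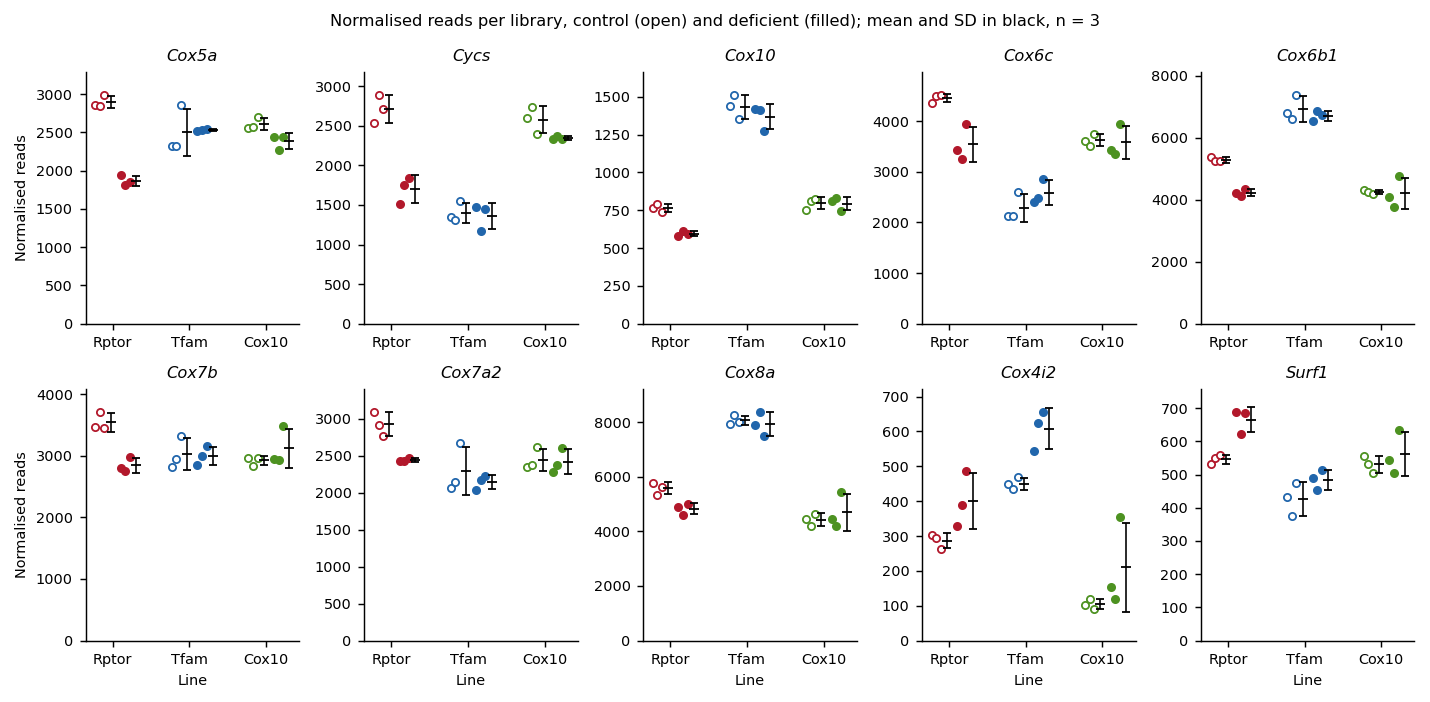
Normalised reads (linear axis from 0) of the 10 genes past the threshold in at least 1 line, with each library as a point, open for control and filled for deficient, and mean and SD of 3 libraries in black. In the Rptor line 8 genes are lower in every deficient library than in every control, while Cox4i2 and Surf1 are higher.

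Some reads of these genes can be shared with other annotated genes, since the labels do not give the strand or the treatment of reads that map to several places. Of all 50-base runs in the principal transcript, other GENCODE transcripts held 32% for Cox5a, mostly the antisense gene Gm26631, and 28.5% for Cycs, which has many processed pseudogenes. For Cox6c the share was 13.9%, from the testis form Cox6c2. None were shared for Cox6b1, Cox7a2, Cox8a and Cox4i2, and the shares of Cox7b and Cox10 were 0.63% and 0.0349%. Surf1 had a share of 8.01%, from Surf2, and Cox4i1 and Cox7a2l had 14.7% and 19.8%. The falls of Cox6b1, Cox7a2, Cox7b and Cox10 were thus measured on sequence that is nearly all their own.

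Upstream sequence of some of the falling genes is shown as a description, and shared regulation was not tested. RefSeq promoters on GRCm38.p6 were matched for 20 of the 25 genes (not Cox4i1, Cox4i2, Cox6c, Cox17 and Cox18), and the 250 bases before the annotated start were searched on both strands. The windows below belong to the structural subunit with the largest fall, to the assembly factor that fell and to the carrier.
Cox5a, chr9:57520982-57521231, plus strand: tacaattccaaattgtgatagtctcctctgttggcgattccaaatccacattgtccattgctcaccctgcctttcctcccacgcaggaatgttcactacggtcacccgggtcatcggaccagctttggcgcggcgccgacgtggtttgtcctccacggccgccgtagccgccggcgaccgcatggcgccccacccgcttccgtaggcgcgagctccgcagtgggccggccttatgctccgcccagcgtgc
Cox10, chr11:64079473-64079722, minus strand: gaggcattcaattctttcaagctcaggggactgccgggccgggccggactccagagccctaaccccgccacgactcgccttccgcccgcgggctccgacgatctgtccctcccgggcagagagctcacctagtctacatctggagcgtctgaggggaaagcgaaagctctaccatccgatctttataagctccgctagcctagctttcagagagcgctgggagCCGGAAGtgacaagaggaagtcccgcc
Cycs, chr6:50566570-50566819, minus strand: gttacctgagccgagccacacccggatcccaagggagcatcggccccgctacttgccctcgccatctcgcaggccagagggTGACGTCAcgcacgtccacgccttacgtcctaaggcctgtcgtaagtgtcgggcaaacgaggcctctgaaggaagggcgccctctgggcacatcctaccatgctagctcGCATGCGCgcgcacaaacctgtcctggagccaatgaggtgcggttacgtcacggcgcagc
Capitals mark matches to the searched letters. By GENCODE M21 on GRCm38, Cox5a spans chr9:57521274-57532426, Cox10 chr11:63962627-64079468 and Cycs chr6:50562563-50566538, and on the other strand exons of the noncoding genes 2810001G20Rik and 5430402O13Rik reach into the Cox10 and Cycs windows. The Cycs window holds TGACGTCA, the letters of a cAMP response element, 169 bases before the start, and GCATGCGC, a core of sites for the factor NRF1, 60 bases before it. The Cox10 window holds CCGGAAG, the core letters of an ETS site, 27 bases before the start, and the Cox5a window holds none of the searched letters.

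Across the 20 matched genes these letters stood in genes that fell and in genes that did not pass the test. CCGGAAG was present in 6 of them, among which Cox6b1 and Cox10 fell in the Rptor line and Cox6a1, Cox16, Cox20 and Sco1 did not pass the test, and in 6.91% of all 32851 promoter windows. GCATGCGC was present in Cox6a1 and Cycs, and in 2.26% of all windows. A longer NRF1 motif, GCGCA and GCGC with any 1 base between them, which can overlap GCATGCGC, was present in Cox6a1 and in 3.74% of all windows, AANATGGC, the letters of a YY1 site, in Cox20 and in 3.91%, and TGACGTCA in Cycs and in 1.55%. Each match describes letters in a window and not the binding of a factor.

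The remaining structural subunits of the Rptor line did not pass the test in this fit. Cox4i1 had 8928, 8897 and 9249.5 normalised reads in controls and 9177, 9593 and 9631 in deficient lungs (log2 fold change 0.07, 95% interval -0.04 to 0.18), and the groups overlapped. Cox5b, Cox6a1 and Cox7c had log2 fold changes of -0.14, -0.11 and -0.17 (limma adjusted p = 0.129, 0.272 and 0.0623). Cox7c passed without deficient replicate 3 (limma adjusted p = 0.0395) and with all 18 libraries in one fit (0.0108), and Cox6a1 passed after correction for GC content and length (limma adjusted p = 0.024). Cox6b2 and Cox7a2l are given with the isoforms and supercomplex factors below.

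Assembly factors of the Rptor line mostly did not pass the test. Cox10 fell from 765, 790.3 and 738 normalised reads in controls to 581, 611 and 591 in deficient lungs (log2 fold change -0.36, SE 0.071; limma adjusted p = 0.00553), with the groups well apart and the call kept in each of 6 fits that left out a library. Surf1, an inner-membrane factor of early assembly that is mutated in Leigh syndrome, had 532, 548 and 559 in controls and 689, 621 and 687 in deficient lungs (log2 fold change 0.28, SE 0.078; limma adjusted p = 0.0233). Every deficient library was higher, yet Surf1 passed in only 2 of the 6 fits, with limma adjusted p of 0.0563 to 0.077 without any 1 control or without deficient replicate 3. Cox15, which converts heme O from Cox10 into heme A, had 1228, 1306 and 1228 against 1250.2, 1174 and 1283 (log2 fold change -0.02, 95% interval -0.17 to 0.13). The 2 successive enzymes of heme A synthesis thus had different values in the same lungs, and the difference between them was not tested.

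Copper delivery to the catalytic subunits is carried by Cox17, Sco1, Cox11, Cox16 and Cox19. Their log2 fold changes in the Rptor line were -0.15, -0.14, -0.14, -0.04 and -0.10, with limma adjusted p from 0.277 to 0.768 and overlapping groups for each. Cox14, which keeps the synthesis of subunit 1 in step with assembly, had a log2 fold change of 0.11, and Cox18 and Cox20, which insert and guard subunit 2, had -0.17 and -0.02 (limma adjusted p = 0.504, 0.458 and 0.899). Standard errors of the assembly factors were 0.064 to 0.16, and the 95% intervals of all 11 stayed above -0.54. Other GENCODE transcripts held 88.7% of the runs of Cox16, 68.2% of Cox20 and 50.5% of Cox11, and these 3 values are uncertain for that reason. Sco2, the second Sco factor, was listed at 0 in all 18 libraries; its exons overlap those of Tymp on the same strand over 856 bases and of Ncaph2 on the other over 829 bases.

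Same-numbered libraries of the Rptor line deviated together, though the labels do not say that replicate numbers mark pairs. With the replicate number as a block 12 of 25 genes passed, 8 lower and 4 higher, beside 38.6% of all genes (20% lower and 18.6% higher). The 10 genes above kept their calls. Cox6b2, the testis form of subunit 6b, joined them at 333, 258 and 298 normalised reads in controls and 466, 352 and 359.7 in deficient lungs (log2 fold change 0.40; limma adjusted p = 0.0161 with the block and 0.0588 without), and also passed without the block after correction for GC content and length (0.0486) or when scaled to library totals (0.0493). Cox7a2l, which resembles Cox7a2 but promotes the joining of complexes III and IV, had 3754, 3257 and 3808 against 4058, 3630.4 and 5029.8 (log2 fold change 0.22; limma adjusted p = 0.0342 with the block and 0.166 without). Its groups overlapped, and deficient replicate 3 was the highest. The structural genes that rose in this fit were Cox4i2, Cox6b2 and Cox7a2l. The 4 rises among 25 genes are near the 18.6% of all genes and are not a result about kinds of subunit.

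**Figure D3:**
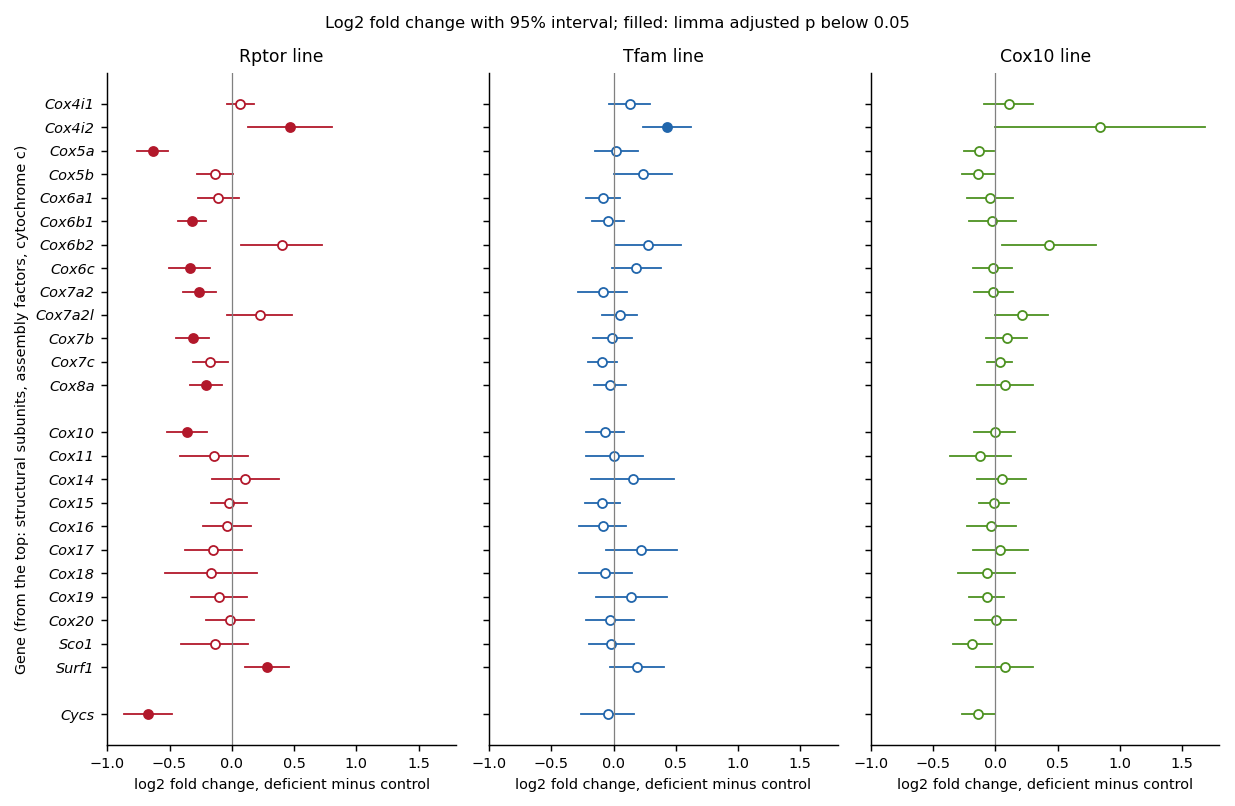
Log2 fold change (deficient minus control) with its 95% interval for the 25 genes after loss of Rptor, Tfam or Cox10, filled where the limma adjusted p was below 0.05. Filled points number 10 for Rptor, 1 for Tfam and 0 for Cox10.

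Cox4i2, the form of subunit 4 that is induced by low oxygen and is abundant in lung, had a higher mean in deficient than in control lungs of each line. In the Rptor line it had 302, 295 and 263 normalised reads in controls and 327, 390.2 and 486 in deficient lungs (log2 fold change 0.47, SE 0.15; limma adjusted p = 0.0375). Among Tfam-line libraries it had 448, 434 and 468 against 544, 623 and 657 (log2 fold change 0.43, SE 0.088; limma adjusted p = 0.0184). Groups were separate in both lines. In the Cox10 line it had 103, 120.0 and 90.9 against 154, 119.7 and 356 (log2 fold change 0.84, SE 0.36; limma adjusted p = 0.384). There the groups overlapped and deficient replicate 3 stood far above the rest. Cox4i2 made up 2.76 to 3.27% of Cox4i1 and Cox4i2 reads in Rptor-line controls and 3.44 to 4.81% in deficient lungs, 6.76 to 7.58% against 8.04 to 9.34% for Tfam, and 1.08 to 1.58% for Cox10 controls. In Cox10-deficient lungs it was 1.81% and 3.51% in replicates 1 and 3, and replicate 2 lay within the control range.

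The Cox4i2 calls depended on single libraries. For Rptor the gene passed in 1 of 6 fits that left out a library, namely without deficient replicate 1 (limma adjusted p = 0.00652), and had limma adjusted p of 0.0679 to 0.117 without each other library. For Tfam it passed without control replicate 3 or deficient replicate 1 and had 0.0571 to 0.0918 without the others. With all 18 libraries in one fit it passed in neither (limma adjusted p = 0.162 and 0.476), a fit in which the spread of the Cox10 line also enters.

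Pericyte markers, like Cox4i2, were higher in deficient lungs of the Rptor line, and their part in the result was not tested. Together, the 6 markers Pdgfrb, Cspg4, Rgs5, Notch3, Kcnj8 and Abcc9 had 14110.2 to 14477 normalised reads in Rptor-line controls and 18815 to 20205 in deficient lungs, where all 6 rose, beside 16.6% of all genes. Across deficient replicates 1 to 3 the sums were 20205, 18922 and 18815, while Cox4i2 ran in the opposite order. In the Tfam line the sums were 15725.5 to 17893 and 17148.5 to 18591.5, and 1 of 6, Kcnj8, rose, beside 2.03% of all genes. In the Cox10 line they were 13918 to 14661 and 15123 to 16412.5, and 0 of 6 passed in limma, beside 0.141% of all genes called higher. Abcc9, a potassium channel subunit of pericytes, had 322, 289 and 1004 normalised reads in Cox10-deficient lungs, against 236, 189.6 and 209.9 in controls, and deficient replicate 3 was far the highest, as for Cox4i2. Not all pericyte markers were high in that library: Notch3 had 6749 normalised reads there, the lowest of the 6 libraries, beside 7321 to 7793 in the others. Summed endothelial markers were 37402 there, beside 25902 and 23488 in the other deficient libraries. In bulk lungs, more cells of a type and more RNA per cell cannot be told apart.

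Isoform ratios were compared within each library, which removes the scaling between libraries. The log2 ratio of Cox4i2 to Cox4i1 was -4.97 ± 0.14 in controls and -4.58 ± 0.25 in deficient lungs of the Rptor line (SD, n = 3; difference 0.40; exact permutation p = 0.1, two-sided). For Tfam it was -3.68 ± 0.09 and -3.38 ± 0.12 (SD, n = 3; difference 0.30; exact permutation p = 0.1). For Cox10 it was -6.25 ± 0.28 and -5.52 ± 0.66 (SD, n = 3; difference 0.73; exact permutation p = 0.2). With 3 libraries against 3, an exact p cannot go below 0.1. The ratio of Cox6b2 to Cox6b1 was -4.16 ± 0.17 in controls and -3.44 ± 0.23 in deficient lungs of the Rptor line (SD, n = 3; difference 0.72; exact permutation p = 0.1). It was -4.75 ± 0.25 and -4.42 ± 0.10 with loss of Tfam (SD, n = 3; difference 0.32; exact permutation p = 0.2). With loss of Cox10 it was -4.15 ± 0.14 and -3.69 ± 0.16 (SD, n = 3; difference 0.45; exact permutation p = 0.1). Deficient means were above control means in all 6 comparisons, and the groups were separate in 4 of them. The ratios use the same reads as the tests of single genes, so these counts are not a separate result. Gene by gene, groups did not overlap for 50.3% of all genes for Rptor, 22.8% for Tfam and 21.3% for Cox10. Such a share was not computed for ratios of other gene pairs. A ratio does not remove differences in cell types between libraries, and their part was not tested.

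**Figure D4:**
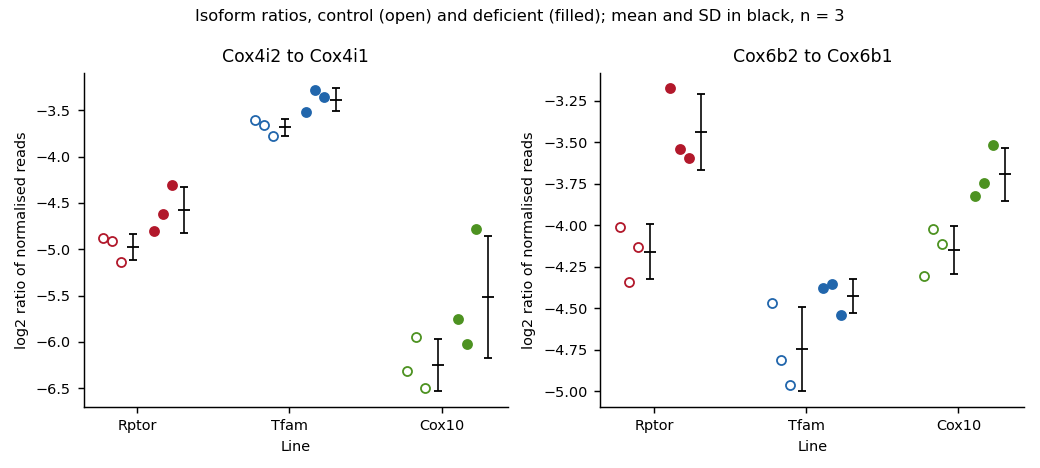
Log2 ratio of normalised reads of Cox4i2 to Cox4i1 and of Cox6b2 to Cox6b1 in each library of the 3 lines, open for control and filled for deficient, with mean and SD of 3 libraries in black. Deficient means lie above control means in all 6 comparisons, by 0.30 to 0.73.

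Of the genes below the mean of 50, Cox6a2 reached it in the Tfam table alone. Cox6a2, the heart and skeletal muscle form of subunit 6a, had 82.3, 210.2 and 120.0 normalised reads in Tfam-line controls and 463, 181 and 149.6 in deficient lungs, but at most 18.9 in the Rptor line and 57.9 in the Cox10 line. Summed reads of 7 cardiac markers were 6308 to 29081 in Tfam-line, 1445 to 4656 in Rptor-line and 997 to 7374 in Cox10-line libraries, with Tfam-deficient replicate 1 the highest for both Cox6a2 and the markers. Table means in the order Rptor, Tfam and Cox10 were 5.99, 200.9 and 22.6 for Cox6a2, 14.0, 32.4 and 17.1 for the muscle form Cox7a1, and 1.65, 11.1 and 1.49 for the muscle form Cox8b. Cox8c and Sco2 were listed at 0 throughout, and Cox7b2 did not exceed 4.04.

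Epithelial markers, which check the tissue and the deletion's target, moved with the Rptor effect. The summed level of 14 markers (Epcam, Cdh1, Nkx2-1 and others, none of them at 0) was 42273 to 47776 in Rptor-line controls and 16117 to 24287 in deficient lungs, and 13 of 14 fell, beside 18.2% of all genes. In the Tfam line the sums were 38201 to 41089 and 29614 to 34179, and 6 of 14 fell, beside 2.63% of all genes. In the Cox10 line they were 26441 to 27263 and 18047 to 27313, and 3 of 14 fell, beside 0.335% of all genes. The 27313 is that of deficient replicate 3, and the other deficient libraries had at most 19601. Other cell types moved with loss of Rptor as well: 5 of 9 mesenchymal, 6 of 7 endothelial and 4 of 4 macrophage markers rose, beside 16.6% of all genes, and of 5 smooth muscle markers 4 fell and 1, Acta2, rose (median -1.51). With loss of Tfam 4 of 5 smooth muscle markers fell (median -0.48), and with loss of Cox10 0 of 5 passed in limma (median -0.90). The median log2 fold change of the epithelial markers was -0.97, -0.30 and -0.44 for Rptor, Tfam and Cox10, and the part of these cell types in the results for complex IV genes was not tested.

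Loss of Tfam or Cox10 was compared with control to ask the same of lungs in which mitochondrial DNA maintenance or complex IV itself was targeted. In the Tfam line 1 of 25 genes passed, Cox4i2, beside 4.66% of all genes (2.03% higher and 2.63% lower). Medians were 0.02 for the structural subunits and -0.02 for the assembly factors, and 13 of the 25 log2 fold changes were below 0, beside 49.7% of all genes. Control and deficient values did not overlap for 3 genes, higher for Cox4i2 and lower for Cox7c and Cox15, beside 22.8% of all genes. Outside Cox4i2, log2 fold changes ran from -0.09 for Cox15 to 0.28 for Cox6b2, and 22 of 25 intervals lay within 0.5 of 0. Cox5a had 2325, 2325 and 2856 normalised reads in controls and 2515, 2532 and 2544 in deficient lungs, and Cycs had 1343, 1315 and 1547 against 1469, 1165 and 1447. Control replicate 3 was the highest of 6 libraries for 5 of 13 structural subunits and 6 of 11 assembly factors, and without it Cox5b and Cox17 also passed (log2 fold changes 0.37 and 0.38; limma adjusted p = 0.0163 and 0.0439), beside 7.46% of all genes. Their log2 fold changes with it were 0.24 and 0.22 (limma adjusted p = 0.272 and 0.418).

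In the Cox10 line 0 of 25 genes passed in limma, beside 0.475% of all genes (0.141% higher and 0.335% lower), and 7 had an unadjusted p below 0.05, as did 13% of all genes. Medians were 0.03 for structural subunits and -0.01 for assembly factors, and 14 of 25 were below 0, beside 49.6% of all genes. Groups did not overlap for 5 genes, higher for Cox6b2 and lower for Cox5a, Cox5b, Sco1 and Cycs, beside 21.3% of all genes. Cox5a had 2564, 2573 and 2698 normalised reads in controls and 2444, 2268 and 2445 in deficient lungs (log2 fold change -0.13, SE 0.051; limma adjusted p = 0.355). Cycs had 2598, 2739 and 2400.5 against 2332, 2370.2 and 2327 (log2 fold change -0.14, SE 0.057; limma adjusted p = 0.371). These differences are the same in sign as those of the Rptor line and smaller. Sco1, which delivers copper to subunit 2, had 689.8, 765 and 765 against 641, 663 and 648 (log2 fold change -0.18, SE 0.068; limma adjusted p = 0.344). Deficient replicate 3 was the highest of 6 libraries for 9 of 13 structural subunits, at a structural sum of 46635 normalised reads against 39516 and 40630.5 in the other deficient and 39448 to 42160 in the control libraries. The same library had summed epithelial, endothelial and macrophage markers of 27313, 37402 and 2086, beside at most 19601, 25902 and 1498 in the other deficient ones, and the part of these cells in its structural sum was not tested. No gene of the 25 passed without it either.

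Whether the effects themselves differed between lines was tested in one fit of all 18 libraries. Against the Tfam line, the Rptor effect was lower for Cox5a (difference -0.66, SE 0.093; limma adjusted p = 0.000369), Cycs (-0.63, SE 0.13; limma adjusted p = 0.00589) and Cox6c (-0.52, SE 0.12; limma adjusted p = 0.0132), 3 of 25 genes beside 11.2% of all genes. Against the Cox10 line it was lower for Cox5a (-0.50, SE 0.093; limma adjusted p = 0.00299), Cycs (-0.54, SE 0.13; limma adjusted p = 0.0168), Cox7b (-0.41, SE 0.10; limma adjusted p = 0.0187) and Cox10 (-0.36, SE 0.094; limma adjusted p = 0.0263), 4 of 25 beside 7.48%. Between the Tfam and Cox10 lines 0 of 25 effects differed in limma, beside 0.055% of all genes. For this last pair the widest standard error was that of Cox4i2 (difference -0.41, SE 0.37), and the difference for Cox5b was 0.38 (SE 0.13; limma adjusted p = 0.977).

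Cox5a and Cycs are the genes whose Rptor effect differed from both other lines, and both comparisons use the same Rptor libraries. Cox5a kept its call in all 12 fits that left out a library, in both comparisons. Cycs lost it against the Cox10 line without Cox10 control replicate 3 or Rptor control replicate 2 (limma adjusted p = 0.0549 and 0.0507), Cox7b without Rptor control replicate 2 (0.0554), and Cox10 in 6 of 12 fits (0.0505 to 0.0826). With the replicate block, Cox5b, Cox7b and Cox10 also differed from the Tfam line (limma adjusted p = 0.0279, 0.0258 and 0.0399), and Cox6c and Cox8a from the Cox10 line (0.0255 and 0.0338). Those fits called more of all genes too, 15.9% against Tfam and 10% against Cox10. Without Tfam control replicate 3, 9 genes differed from the Tfam line, beside 15.5% of all genes.

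**Figure D5:**
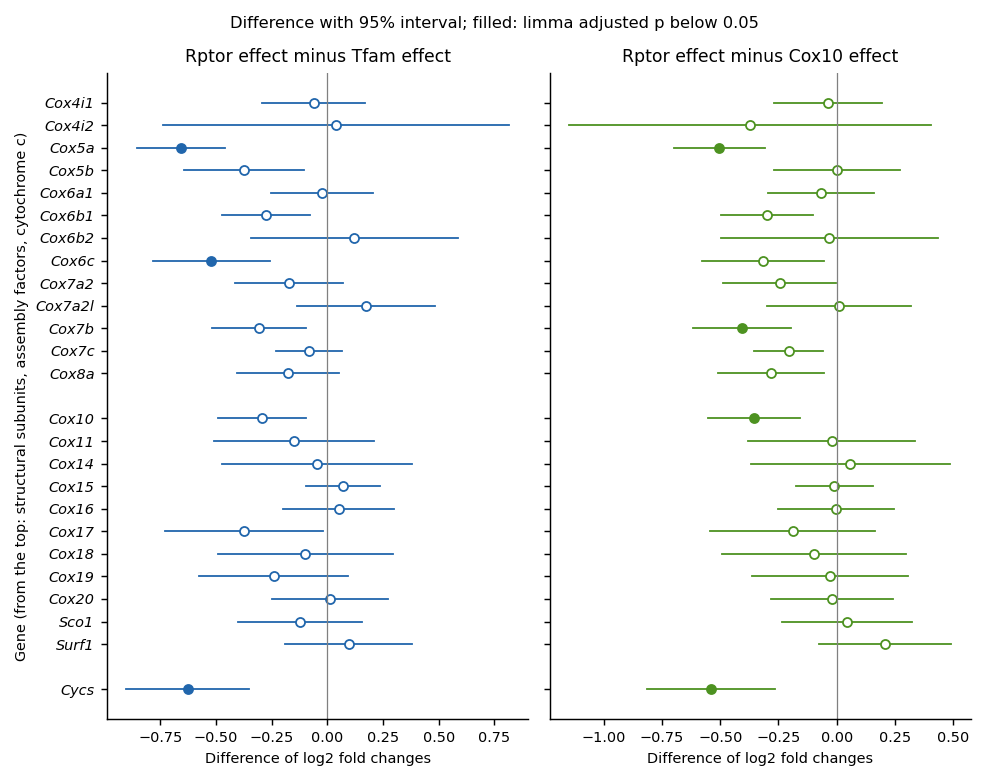
Difference between the log2 fold change of the Rptor line and that of the Tfam line (left) or the Cox10 line (right), with 95% intervals, filled where the limma adjusted p was below 0.05. Filled points are all below 0, namely Cox5a, Cox6c and Cycs on the left and Cox5a, Cox7b, Cox10 and Cycs on the right.

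Other factors of complex IV biogenesis were read for context from a list of 25 genes, of which 21 could be tested. In the Rptor line 8 fell and 0 rose, beside 18.2% and 16.6% of all genes (median log2 fold change -0.18): Chchd4 and Gfer, which fold intermembrane-space proteins by disulfide transfer, Lrpprc and Slirp, which stabilise mitochondrial mRNA, Taco1, which activates translation of subunit 1, Hccs, which attaches heme to cytochrome c, Ndufa4, a subunit of complex IV despite its name, and Fdx1l, a ferredoxin used in heme A synthesis. Fdx1l moved most, from 145 ± 9.34 to 104 ± 13.3 normalised reads (SD, n = 3; log2 fold change -0.48; limma adjusted p = 0.0319). With loss of Tfam or Cox10 0 of 21 passed in limma, beside 4.66% and 0.475% of all genes, with medians of 0.04 and -0.01.

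Genes that feed or regulate the complex were also read, and their counts stand against the same shares of all genes, 16.6% higher and 18.2% lower with loss of Rptor. The counts of the heme, copper and regulator lists are near those shares and are not results about these lists. Of 8 heme synthesis genes 1 rose in the Rptor line, Ppox (log2 fold change 0.29; limma adjusted p = 0.022), and of 5 copper handling genes 1 fell, Slc25a3, the mitochondrial phosphate and copper carrier (-0.24; limma adjusted p = 0.0093). Of 9 regulators of respiratory genes, Pprc1, a coactivator of the PGC-1 family, fell (log2 fold change -0.51; limma adjusted p = 0.000335) and Esrra rose (0.28; limma adjusted p = 0.0256), while Nrf1 and Gabpa had -0.09 and -0.01 (limma adjusted p = 0.281 and 0.882). None of these genes passed with loss of Tfam or Cox10. Complex III and ATP synthase stood beside complex IV in the Rptor line, with 7 of 9 and 13 of 15 subunits lower, medians of -0.32 and -0.26, and 0 higher, and complex I had 9 of 35 lower, 0 higher and a median of -0.13.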

How the data were processed

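RNA of whole lungs was sequenced as 18 libraries, and the authors deposited 1 table per line with gene-level signal values, namely read counts divided by a size factor for each library. The submitters' processing notes name Trim Galore, HISAT2, featureCounts and DESeq2 with build mm10, without versions. Columns with the authors' own fold changes and p-values were not used. Library strand and the handling of multiply mapped reads are not given in the sources used here.

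Each line was fitted separately with limma 3.58.1 in R 4.3.3 (moderated test with mean-variance trend, two-sided) on log2(value + 1), over genes with at least 10 normalised reads in at least 3 of 6 libraries (14940, 15053 and 14937 genes). This filter kept all 25 genes of interest. Adjusted p-values are Benjamini-Hochberg over all genes tested, with a threshold of 0.05, and fold changes are on the log2(value + 1) scale. Differences between lines came from 1 fit of 18 libraries over 14550 genes. Code was tested on simulated data. Summaries used Python 3.11.15, and exact permutation tests scipy 1.17.1.

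The members and gene lists were chosen with earlier results of these data known, and the motif letters with the promoter sequences in view. Full values are given for genes past the threshold in at least 1 line, for genes whose effects differed between lines and for the 3 targeted genes, and the rest by range and counts. Other genes named after their values were seen are Cox4i1, Cox15, Sco1, Cox6b2, Cox7a2l, Cox6a2, Abcc9, Nrf1 and Gabpa. The labels do not say whether replicate numbers mark pairs. In the Rptor line same-numbered libraries had correlated deviations from their group means (0.221 to 0.330, mean 0.270). Differently numbered Tfam libraries, control replicate 2 and deficient replicate 1, had 0.378, so such correlations cannot show pairing. Alternatives were other scalings, filters, pseudocounts, a replicate block, a correction for GC content and length, 1 fit of all libraries, and leaving out each library.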

Additional observations from a re-analysis of the deposited data

Results flagged for a closer look

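The results below were picked out because the effect of losing Rptor differed from that of losing Tfam or Cox10 by the test of the difference itself (limma over 18 libraries). Against Tfam, the difference in log2 fold change was -0.66 for Cox5a, -0.52 for Cox6c and -0.63 for Cycs, 3 of 25 genes beside 11.2% of all genes. Against Cox10, it was -0.50 for Cox5a, -0.41 for Cox7b, -0.36 for Cox10 and -0.54 for Cycs, 4 of 25 beside 7.48%. The count against Tfam is near the share of all genes. Epithelial markers also differed, 10 of 14 lower against Tfam (median -0.79) and 8 of 14 against Cox10 (median -0.66). Of all genes 6.35% and 4.21% were lower, and the part of epithelial cells was not tested. For Cox5a and Cycs the 3 Rptor-deficient libraries were below all 3 of their controls. Both sets of differences use the same Rptor libraries, so they are not independent of each other.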

How the results depend on the processing

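No gene past the threshold changed direction under an alternative, while genes near 0 that did not pass, such as Cox20 with loss of Rptor and Cox5a with loss of Tfam, changed sign under some. With loss of Rptor 7 of 25 genes passed at an adjusted p below 0.01 (18.2% of all genes). Under the other settings of all libraries 10 to 13 passed (25.7 to 40.8% of all genes), with 13 for the block and the GC content and length correction (40.4%). With 1 library left out 7 to 10 passed (24.1 to 35.7% of all genes). For loss of Cox10 0 of 25 passed in limma under each, beside 0.0201 to 2.25% of all genes. In its reported fit 7 had an unadjusted p below 0.05, beside 13% of all genes. In the Tfam line the count was 0 with all 18 libraries in one fit (2.74% of all genes) and 0 at an adjusted p below 0.01 (2.09%). It was 2 with the replicate block and the GC content and length correction (6.8% of all genes). With 1 library left out it was 0 to 3 (2.41 to 7.46% of all genes), with 3 without control replicate 3 (7.46%). For Rptor against Tfam the count was 6 with the replicate block (15.9% of all genes). With 1 library left out it was 3 to 9 (5.8 to 15.5% of all genes), with 9 without Tfam control replicate 3 (15.5%). For Rptor against Cox10 the count was 1 at an adjusted p below 0.01 (3.07% of all genes). With 1 library left out it was 1 to 5 (4.66 to 12.5% of all genes), with 1 without Rptor control replicate 2 (5.21%). The causes were not tested. Same-numbered libraries did not deviate together in Tfam lungs (correlations -0.31 to 0.15), and 1 of 3 Cox10 pairs stayed below 0.1 (0.049 to 0.45). With the replicate block alone, 1 gene passed for Tfam and 0 for Cox10. The count test on recovered reads by edgeR was not run. With 3 libraries a group, the median standard error of a log2 fold change was 0.078 for Rptor, 0.086 for Tfam and 0.080 for Cox10, so that small changes could not be seen.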
